A study of Mus musculus with 2 samples.

Results

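Metabotropic glutamate receptors are glutamate-activated receptors that signal through G proteins, and Homer proteins are postsynaptic scaffolds that tether some of these receptors to their partners. The account below covers 6 receptor genes (Grm2, Grm3, Grm4, Grm5, Grm7 and Grm8) and 3 Homer genes (Homer1, Homer2 and Homer3). They were taken by gene symbol from all gene and transcript tables, and are 9 of 55450 annotated genes, with 61 of 141864 annotated transcripts. The other receptors of the family were not analysed here. Total RNA was sequenced from hippocampus of female B6CASTF1/J mice, an F1 hybrid of C57BL/6J and CAST/EiJ, at 14 days of age, and the labels name no treatment. There was 1 group of 2 biological replicate libraries and no second condition, so levels, transcript forms and the spread between libraries are described, and no p-value is given. Each library lists 3 females, both carry 1 shared donor identifier, and the labels name a layer of the hippocampus without stating which. Nothing in the labels attributes the difference between the libraries to anything beyond replication, and it may in part be technical.

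Group I receptors such as mGlu5 (Grm5) act mainly after the synapse, couple to Gq proteins and release calcium from internal stores. Group II (Grm2, Grm3) and group III (Grm4, Grm7, Grm8) couple to Gi/o proteins and act largely on nerve terminals, where they hold back transmitter release. Long Homer proteins join an amino-terminal EVH1 domain, which binds mGlu5, Shank proteins and the calcium channels of internal stores, to a coiled coil that lets Homers bundle together. Short Homer1 proteins such as Homer1a keep the EVH1 domain but lack the coiled coil, and so compete with the long forms. Homer1a is known as an immediate early gene product of active neurons.

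Depth was 33465393 expected counts (estimated reads, which need not be whole) in replicate 1 and 32879872 in replicate 2. Markers of the labelled tissue were present: 4 of 4 excitatory neuron markers, 4 of 4 dentate granule cell markers and 6 of 6 astrocyte markers were detected, that is, had at least 1 TPM in both libraries. TPM is a length-corrected share of all transcripts in a library, scaled to a fixed total. Of the choroid plexus markers 2 of 6 were detected, and their summed level was 1423 TPM in replicate 1 and 8.28 TPM in replicate 2. In replicate 2, 5 of these 6 markers stood below 2 TPM, none of them at 0. Retinal markers were detected in 0 of 3 cases, with Crx at 0 in both libraries. Markers listed for other brain regions were detected too: 4 of 4 for striatum, 3 of 4 for thalamus and 2 of 4 for cerebellar granule cells. Detection by this rule therefore does not single out hippocampus. Median levels over these lists were 1.63 TPM for striatum, 10.4 TPM for thalamus and 12.6 TPM for cerebellar granule cells. They were 392 TPM for excitatory neuron, 18.7 TPM for dentate granule cell and 180 TPM for astrocyte markers.

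All 9 genes were detected, against 58.8% of 21951 protein-coding genes. Their median level was 29.8 TPM, against 14.9 TPM over all detected protein-coding genes. Grm5 stood highest and Grm8 lowest. The deposited tables hold 2 quantifications of each library, one from alignments and one from the reads themselves, and levels are from the alignment-based one unless stated.

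**Figure D1:**
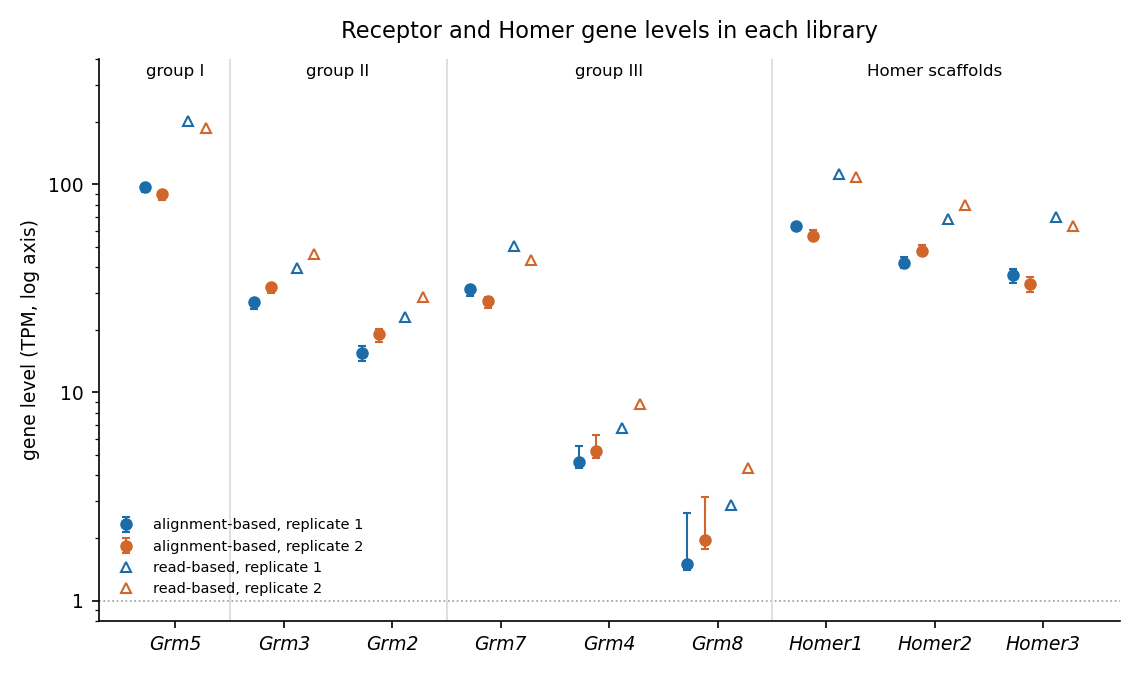
Gene level in TPM on a log axis for the 9 genes, by receptor group and for the Homer scaffolds, in replicate 1 (blue) and replicate 2 (orange). Filled circles are the alignment-based estimates with the authors' credibility interval, open triangles the read-based ones, and the dotted line is 1 TPM. Grm5 stands highest at 97.6 and 89.6 TPM and Grm8 lowest at 1.49 and 1.95 TPM in alignment-based levels.

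Grm5, the group I receptor, had 97.6 TPM in replicate 1 and 89.6 TPM in replicate 2, a mean of 93.6 ± 5.66 TPM (SD, n = 2). It ranked 926 among 12898 detected protein-coding genes, within the top 7.18%. The gene lies at chr7:87584168-88134907 (mm10, plus strand) and has 7 annotated transcripts, 3 of them coding. It rested on 11761 expected counts in replicate 1 and 11332 in replicate 2.

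Of the group II receptors, Grm3, made by neurons and astrocytes, had 27.3 TPM in replicate 1 and 32.3 TPM in replicate 2 (mean 29.8 ± 3.53, SD, n = 2). Grm2, a presynaptic receptor known from the mossy fibre terminals of dentate granule cells, had 15.5 TPM in replicate 1 and 19.1 TPM in replicate 2 (mean 17.3 ± 2.56). Both were higher in replicate 2, and the lowest Grm3 value lay above the highest Grm2 value. Grm3 over Grm2 was 1.76 in replicate 1 and 1.69 in replicate 2. Grm3 lies at chr5:9485541-9725170 and Grm2 at chr9:106643095-106656082, both on the minus strand.

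Of the group III receptors, Grm7, a low-affinity receptor of the presynaptic active zone, had 31.3 TPM in replicate 1 and 27.7 TPM in replicate 2 (mean 29.5 ± 2.60, SD, n = 2). Grm4, best known from cerebellar granule cell terminals, had 4.63 TPM in replicate 1 and 5.23 TPM in replicate 2 (mean 4.93 ± 0.424). Grm8, a receptor of glutamatergic terminals, had 1.49 TPM in replicate 1 and 1.95 TPM in replicate 2 (mean 1.72 ± 0.325). Grm7 thus carried most of the group III message in both libraries, at 6.77 times Grm4 in replicate 1 and 5.29 times in replicate 2. The Grm8 level rested on only 116 and 138 expected counts, and its credibility intervals, with bounds of 1.40 and 2.62 TPM for replicate 1 and of 1.77 and 3.13 TPM for replicate 2, overlapped. Grm7 lies at chr6:110645581-111567230 on the plus strand, Grm4 at chr17:27422387-27521403 and Grm8 at chr6:27275119-28135178 on the minus strand.

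Homer1 was the most abundant scaffold gene, with 62.8 TPM in replicate 1 and 56.8 TPM in replicate 2 (mean 59.8 ± 4.24, SD, n = 2). Homer2 had 42.1 TPM in replicate 1 and 48.1 TPM in replicate 2 (mean 45.1 ± 4.26). Homer3, best known from cerebellar Purkinje cells, had 36.6 TPM in replicate 1 and 33.2 TPM in replicate 2 (mean 34.9 ± 2.41). The 3 genes did not overlap each other in these levels, although Homer1 over Homer2 differed between the libraries, at 1.49 in replicate 1 and 1.18 in replicate 2. Grm5 over Homer1 was 1.55 in replicate 1 and 1.58 in replicate 2. Homer1 lies at chr13:93299635-93405129 and Homer3 at chr8:70282827-70294361 on the plus strand, and Homer2 at chr7:81600481-81707527 on the minus strand.

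From highest to lowest mean the order was Grm5, Homer1, Homer2, Homer3, Grm3, Grm7, Grm2, Grm4 and Grm8. Of the 8 pairs of neighbours, only Grm3 and Grm7 overlapped between libraries in the alignment-based levels. In the read-based levels that pair overlapped again, and so did Homer2 and Homer3, at 67.8 and 79.6 TPM for Homer2 in replicates 1 and 2 against 69.4 and 63.4 TPM for Homer3. Across tissue made of many cell types, fewer cells of a type and less RNA per cell cannot be told apart.

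Summed over the 6 receptors, group I took 54.9% of TPM in replicate 1 and 51.0% in replicate 2. Group II took 24.1% in replicate 1 and 29.2% in replicate 2, and group III 21.1% in replicate 1 and 19.8% in replicate 2. Group I therefore held more than either of the other groups in both libraries. Counting coding transcripts only, its mean share was 48.5%, against 52.9% over all transcripts. Among the Homer genes, Homer1 took 44.4% of summed TPM in replicate 1 and 41.1% in replicate 2, Homer2 29.7% in replicate 1 and 34.8% in replicate 2, and Homer3 25.9% in replicate 1 and 24.0% in replicate 2.

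Homer1 has 12 annotated transcripts, and the coding sequence splits after a shared coding exon, the fifth of the long forms (chr13:93355940-93356079, 140 bases). Short transcripts end soon after that exon, while long ones run on to the last coding exon (chr13:93402041-93402226, 62 residues), which holds the end of the coiled coil. Coding bases around the end of that exon are shown, but the short and long Homer1 estimates do not rest on these bases alone. The models also differ in the bases past the coding end. These number 4352 for the short Homer1-204 and 348 for the short Homer1-207. For the long Homer1-203 and Homer1-202 they number 1455 and 2903. Each line gives the last bases of that shared exon in lower case and the coding bases that follow in capitals, 5′ to 3′ on the plus strand, from the GENCODE M21 transcript sequences (mm10).
Homer1-204: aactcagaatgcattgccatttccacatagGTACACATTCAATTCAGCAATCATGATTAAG
Homer1-205: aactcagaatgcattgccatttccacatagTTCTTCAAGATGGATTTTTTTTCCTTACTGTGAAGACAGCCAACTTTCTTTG
Homer1-206: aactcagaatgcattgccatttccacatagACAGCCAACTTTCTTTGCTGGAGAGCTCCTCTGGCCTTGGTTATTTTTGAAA
Homer1-207: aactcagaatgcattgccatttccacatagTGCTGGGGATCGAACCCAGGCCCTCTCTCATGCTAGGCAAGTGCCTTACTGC
Homer1-202: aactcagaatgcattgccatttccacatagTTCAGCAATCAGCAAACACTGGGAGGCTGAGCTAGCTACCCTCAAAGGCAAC
Homer1-203: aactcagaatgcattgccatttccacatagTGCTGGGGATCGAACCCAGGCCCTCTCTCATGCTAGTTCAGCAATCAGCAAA

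Homer1-204 encodes 186 residues, the length of Homer1a, and reads straight on from the shared exon into what is intron in the long forms, with 31 further coding bases. Homer1-207 (193 residues) and the long Homer1-203 (366 residues) share a 36-base exon (chr13:93386345-93386380), and Homer1-207 then reads on into the intron behind it. Homer1-202, a long form of 370 residues with its own first exon, skips those 36 bases. Homer1-205 (203 residues) and Homer1-206 (233 residues) use neighbouring splice sites of another terminal exon. All 4 short forms thus end in sequence that is intronic in the long forms, so reads from unspliced long RNA and from a short form's last exon carry the same bases there and cannot be told apart.

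**Figure D2:**
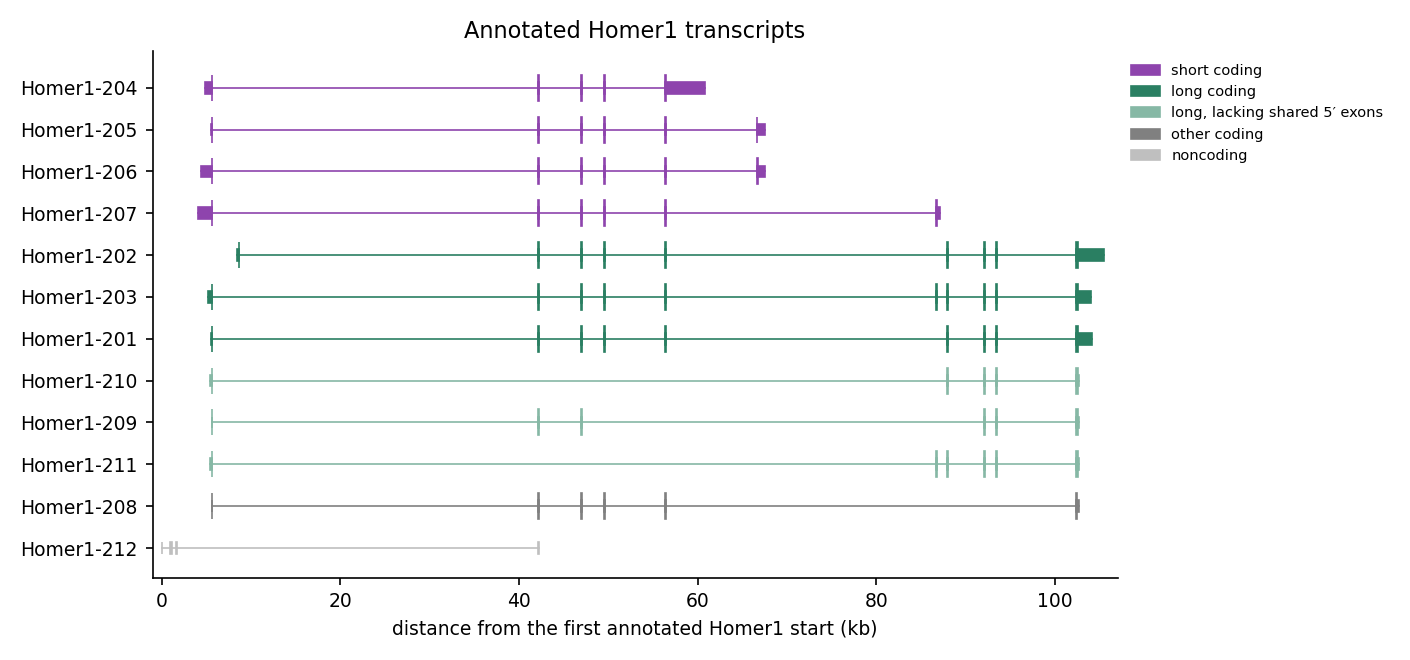
Annotated Homer1 transcripts by distance in kb from the first annotated start, with 1 transcript a row. Tall boxes are coding, low boxes untranslated and lines intronic, and colours mark 4 short coding forms, 3 long coding forms, 3 long forms lacking shared 5′ exons, 1 other coding form and 1 noncoding transcript. The short forms share their 5′ exons with the long ones and end before the last coding exon.

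The short and long Homer1 models had similar summed TPM estimates. The short sum may include reads from unspliced long RNA, which cannot be told apart. The 4 short forms together had 30.6 TPM in replicate 1 and 27.0 TPM in replicate 2. The long forms together had 32.2 TPM in replicate 1 and 29.7 TPM in replicate 2. Short forms were thus 48.7% of short plus long TPM in replicate 1 and 47.6% in replicate 2 (mean 48.2% ± 0.734, SD, n = 2). In the read-based estimates the share was 44.3% in replicate 1 and 41.3% in replicate 2, with the long form Homer1-210, which lacks shared 5′ exons, counted as long. Without such forms the read-based share was 52.5% on average, so which form was ahead depended on the transcripts counted as long.

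Most of the short TPM was Homer1-207, at 17.1 TPM in replicate 1 and 16.3 TPM in replicate 2. Homer1-204, the Homer1a form, had 9.61 TPM in replicate 1 and 6.15 TPM in replicate 2. Its credibility intervals ran between 8.75 and 9.92 TPM for replicate 1 and between 5.51 and 6.45 TPM for replicate 2, and did not overlap. Homer1-204 was thus higher in replicate 1, while Homer1-207 was level within its intervals. Homer1-206 had 3.47 TPM in replicate 1 and 3.74 TPM in replicate 2, and Homer1-205 had 0.380 TPM in replicate 1 and 0.840 TPM in replicate 2. Homer1-204 made up 31.5% of short TPM in replicate 1 and 22.7% in replicate 2.

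Among the long forms, Homer1-203, with the 36-base exon, had 18.9 TPM in replicate 1 and 17.9 TPM in replicate 2. Homer1-202 had 13.3 TPM in replicate 1 and 11.8 TPM in replicate 2. The remaining long form, Homer1-201 (354 residues), was listed at 0 in both libraries and both quantifications. The long forms with values had intervals that overlapped between libraries, and Homer1-204 over all long forms was 0.298 in replicate 1 and 0.207 in replicate 2. In the read-based estimates that ratio was 0.221 in replicate 1 and 0.147 in replicate 2, again higher in replicate 1.

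Homer1-210, which has 180 residues and lacks most shared 5′ exons, was the clearest disagreement between quantifications. It was listed at 0 in both libraries by alignment, with upper credibility bounds of 0.930 TPM in replicate 1 and 1.17 TPM in replicate 2. The read-based tables gave it 15.9 TPM in replicate 1 and 22.4 TPM in replicate 2. The remaining forms, Homer1-208, Homer1-209, Homer1-211 and the noncoding Homer1-212, were at 0 by alignment and at no more than 1.98 TPM in the read-based tables.

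**Figure D3:**
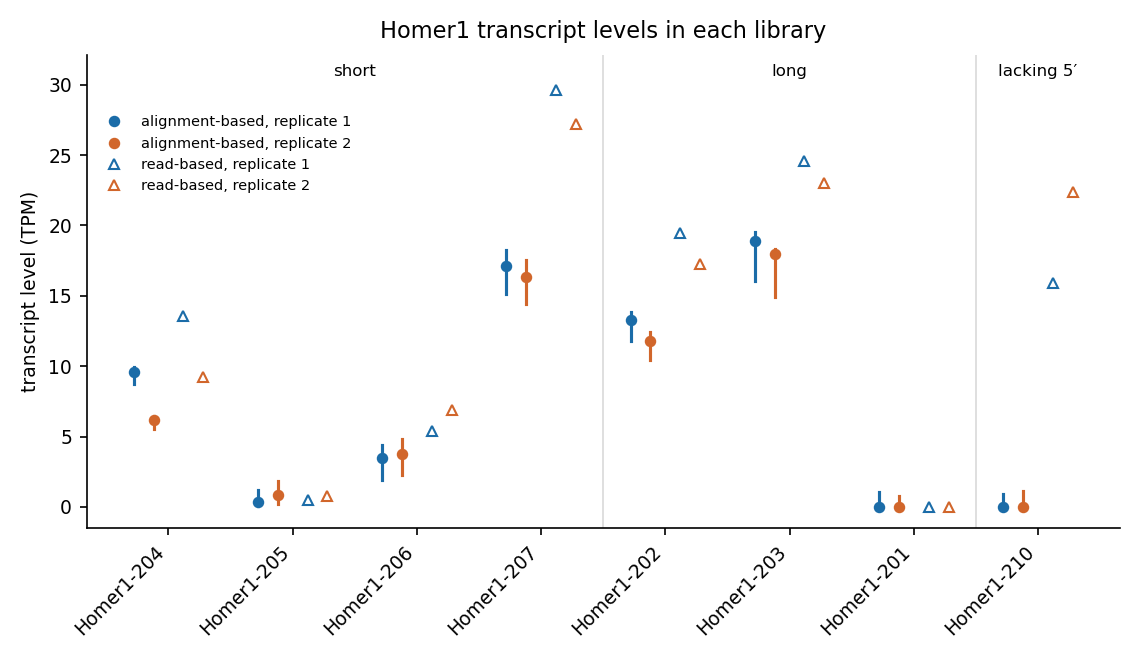
Level in TPM of 8 Homer1 transcripts in replicate 1 (blue) and replicate 2 (orange). Filled circles are alignment-based estimates with the authors' credibility interval as a line, and open triangles are read-based estimates. Homer1-204 separates between the libraries at 9.61 and 6.15 TPM, and Homer1-210 is at 0 by alignment but at 15.9 and 22.4 TPM in the read-based tables.

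Grm5 is made in 2 main coding forms that differ in the intracellular tail by a cassette exon (chr7:88116193-88116288, 96 bases, 32 residues). The b form holds it and the a form skips it; in rat, the a form is known to prevail early after birth and the b form later. The cassette is shown in capitals for Grm5-204 (1203 residues, the b form), between flanking coding bases in lower case, and for Grm5-202 (1171 residues, the a form) the capitals mark the bases that follow the join directly. Both run 5′ to 3′ on the plus strand.
Grm5-204: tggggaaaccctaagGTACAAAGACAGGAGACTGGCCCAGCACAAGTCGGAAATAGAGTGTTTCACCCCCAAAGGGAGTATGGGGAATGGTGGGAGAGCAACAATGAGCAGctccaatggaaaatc
Grm5-202: tggggaaaccctaagCTCCAATGGAAAATC

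The b form, Grm5-204, had 30.9 TPM in replicate 1 and 32.5 TPM in replicate 2. The a form, Grm5-202, had 45.2 TPM in replicate 1 and 43.1 TPM in replicate 2. The a form was thus ahead in both libraries, and the b form made up 40.6% of the pair in replicate 1 and 43.0% in replicate 2. The read-based share of the b form was 47.1% in replicate 1 and 47.7% in replicate 2, with the a form again ahead. The 2 models also differ in their ends, at 4500 bases for Grm5-204 and 8047 bases for Grm5-202, so their shares do not rest on the cassette alone.

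A noncoding 5′ transcript of the locus, Grm5-205 (551 bases), was estimated very differently by the 2 quantifications. By alignment it had 13.9 TPM in replicate 1 and 9.05 TPM in replicate 2. In the read-based tables it had 67.1 TPM in replicate 1 and 57.7 TPM in replicate 2, above either coding form in replicate 1. That placing holds in length-corrected TPM only. The 551-base model rested on 255 and 213 read-based counts in replicates 1 and 2, against 8247 and 7938 for Grm5-202. By alignment it rested on 143 and 93 counts. The quantifications also correct for length differently. The alignment-based one took a median of 99 bases off gene length in both libraries. The read-based one took 343 bases off transcript length in replicate 1 and 346 in replicate 2, as medians over long transcripts. Such a difference weighs most on short models, and its part in the gap was not tested. The retained-intron transcript Grm5-206 had 4.05 TPM in replicate 1 and 2.92 TPM in replicate 2 by alignment. The 3 coding models alone had 76.1 TPM in replicate 1 and 75.6 TPM in replicate 2.

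Grm7 likewise has an a and a b form with different carboxyl ends, the sequence to which trafficking proteins such as Pick1 bind. The capitals mark the coding bases behind the last shared exon of each form, which replace one another; a 92-base exon (chr6:111501510-111501601) opens the b form's end. Both run 5′ to 3′ on the plus strand.
Grm7-201: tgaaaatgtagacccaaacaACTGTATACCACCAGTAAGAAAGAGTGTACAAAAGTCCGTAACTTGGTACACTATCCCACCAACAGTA
Grm7-202: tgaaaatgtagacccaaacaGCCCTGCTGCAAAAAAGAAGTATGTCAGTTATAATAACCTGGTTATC

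Grm7-201, the b form of 922 residues, had 7.88 TPM in replicate 1 and 7.98 TPM in replicate 2. Grm7-202, the a form of 915 residues, had 18.9 TPM in replicate 1 and 16.3 TPM in replicate 2. The a form led in both libraries with intervals apart from those of the b form. The b form made up 29.5% of the pair in replicate 1 and 32.9% in replicate 2. These models also differ in length, at 3127 bases for Grm7-201 and 4197 bases for Grm7-202, so their shares do not rest on the coding ends alone. Grm7-204, annotated as a target of nonsense-mediated decay, had 2.30 TPM in replicate 1 and 1.71 TPM in replicate 2. Of the short fragments of the gene, Grm7-205 had 0.990 TPM in replicate 1 and 0.410 TPM in replicate 2 by alignment. In the read-based tables it had 5.74 TPM in replicate 1 and 3.52 TPM in replicate 2, on only 10 and 6 counts. Grm7-203, another fragment, had 1.30 TPM in replicate 1 and 1.25 TPM in replicate 2 by alignment.

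Grm2 has a second coding model, Grm2-203 (594 residues), which skips 834 bases (chr9:106647271-106648104) that in the 872-residue Grm2-201 encode much of the membrane-spanning part. The capitals mark the coding bases behind the point where they part, 5′ to 3′ on the minus strand.
Grm2-203: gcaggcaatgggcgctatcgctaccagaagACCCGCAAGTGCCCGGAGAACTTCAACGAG
Grm2-201: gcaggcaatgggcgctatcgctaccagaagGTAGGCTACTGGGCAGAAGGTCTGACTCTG

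Grm2-203 had 5.63 TPM in replicate 1 and 7.68 TPM in replicate 2. Grm2-201 had 9.47 TPM in replicate 1 and 10.8 TPM in replicate 2. The full-length form was ahead in both libraries, and Grm2-203 took 36.3% of the gene's TPM in replicate 1 and 40.2% in replicate 2. Its read-based share was 45.8% in replicate 1 and 46.8% in replicate 2. The models differ in length, at 4711 bases for Grm2-201 and 2111 bases for Grm2-203, so these shares do not rest on the skipped bases alone. In expected counts Grm2-203 had 259 in replicate 1 and 351 in replicate 2, against 999 and 1136 for Grm2-201. Grm3 has a single annotated transcript, and Grm4-201 (912 residues) took 87.3% of Grm4 TPM in replicate 1 and 87.6% in replicate 2. Its read-based share was 77.8% in replicate 1 and 69.9% in replicate 2, with no other Grm4 model above 14.4% in a library. Grm8-202 carries a 55-base exon extension (chr6:27285680-27285734) near the coding end that Grm8-201 lacks. These models also differ in length, at 3856 bases for Grm8-202 and 2830 bases for Grm8-201, so their estimates do not rest on the extension alone. Grm8-202 had 1.03 TPM in replicate 1 and 1.25 TPM in replicate 2. Grm8-201 had 0.190 TPM in replicate 1 and was listed at 0 in replicate 2, with intervals that overlapped those of Grm8-202. Grm8-202 had the higher estimate in both libraries and both quantifications. In the read-based tables Grm8-202 had 1.54 TPM in replicate 1 and 1.6 TPM in replicate 2, and Grm8-201 had 0.233 TPM in replicate 1 and 0.305 TPM in replicate 2. Of the partial Grm8 models, Grm8-204 had 0.16 TPM in replicate 1 and 0.50 TPM in replicate 2 by alignment. Grm8-206 had 0.10 TPM in replicate 1 and 0.14 TPM in replicate 2, and Grm8-205 was at 0. The read-based tables gave Grm8-205 0.789 TPM in replicate 1 and 1.25 TPM in replicate 2, on only 2.76 and 4.24 counts.

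In alignment-based TPM, Homer2 was divided mainly between 2 coding forms. Homer2-201 (343 residues) had 18.2 TPM in replicate 1 and 23.1 TPM in replicate 2. Homer2-202 (290 residues, with a downstream coding start) had 15.5 TPM in replicate 1 and 17.3 TPM in replicate 2. Both were higher in replicate 2, and the intervals of Homer2-202 did not overlap between libraries. The models differ in length, at 1736 bases for Homer2-201 and 10982 bases for Homer2-202, so their estimates do not rest on the coding difference alone. In expected counts the order was the reverse. Homer2-202 had 3862 in replicate 1 and 4288 in replicate 2, against 681 and 858 for Homer2-201. Homer2-206 (354 residues) carries 33 extra coding bases (chr7:81618683-81618715), shown in capitals, 5′ to 3′ on the minus strand.
Homer2-206: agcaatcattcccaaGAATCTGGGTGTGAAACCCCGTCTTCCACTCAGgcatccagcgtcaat

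Homer2-206 had 4.20 TPM in replicate 1 and 3.64 TPM in replicate 2 by alignment. In the read-based tables it had 1.23 TPM in replicate 1 and was listed at 0 in replicate 2. Its alignment-based intervals began at 0.628 TPM in replicate 1 and 0.564 TPM in replicate 2, so its level was poorly held in either quantification. The noncoding Homer2-208 had 0.420 TPM in replicate 1 and 0.640 TPM in replicate 2 by alignment, and 13.3 TPM in replicate 1 and 17.3 TPM in replicate 2 in the read-based tables.

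Homer3 was spread over several models with similar sequence. Homer3-203 had 15.6 TPM in replicate 1 and 13.7 TPM in replicate 2, and Homer3-201 had 9.21 TPM in replicate 1 and 10.2 TPM in replicate 2. These 2 models encode 359 residues each, and the intervals of Homer3-201 were wide, with bounds of 1.90 and 16.7 TPM for replicate 1 and of 2.53 and 17.4 TPM for replicate 2. Those of Homer3-203, with bounds of 7.05 and 21.8 TPM for replicate 1 and of 5.88 and 20.1 TPM for replicate 2, overlapped most of that range. Another model, Homer3-206 (356 residues), was at 0 by alignment and at 12.4 TPM in replicate 1 and 12.0 TPM in replicate 2 in the read-based tables, which held Homer3-201 at no more than 1.79 TPM. Homer3-202, a 5′ model of 122 residues, had 1.02 TPM in replicate 1 and 1.28 TPM in replicate 2 by alignment, and 11.4 TPM in replicate 1 and 8.66 TPM in replicate 2 in the read-based tables. The retained-intron models Homer3-205, Homer3-207 and Homer3-208 lay between 1.04 and 4.02 TPM in both libraries by alignment and between 2.41 and 12.4 TPM in the read-based tables. Homer3-203 had the highest estimate of the full-length models in both quantifications, not separated from Homer3-201 by the alignment-based intervals, while the model next to it was Homer3-201 by alignment and Homer3-206 in the read-based tables.

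**Figure D4:**
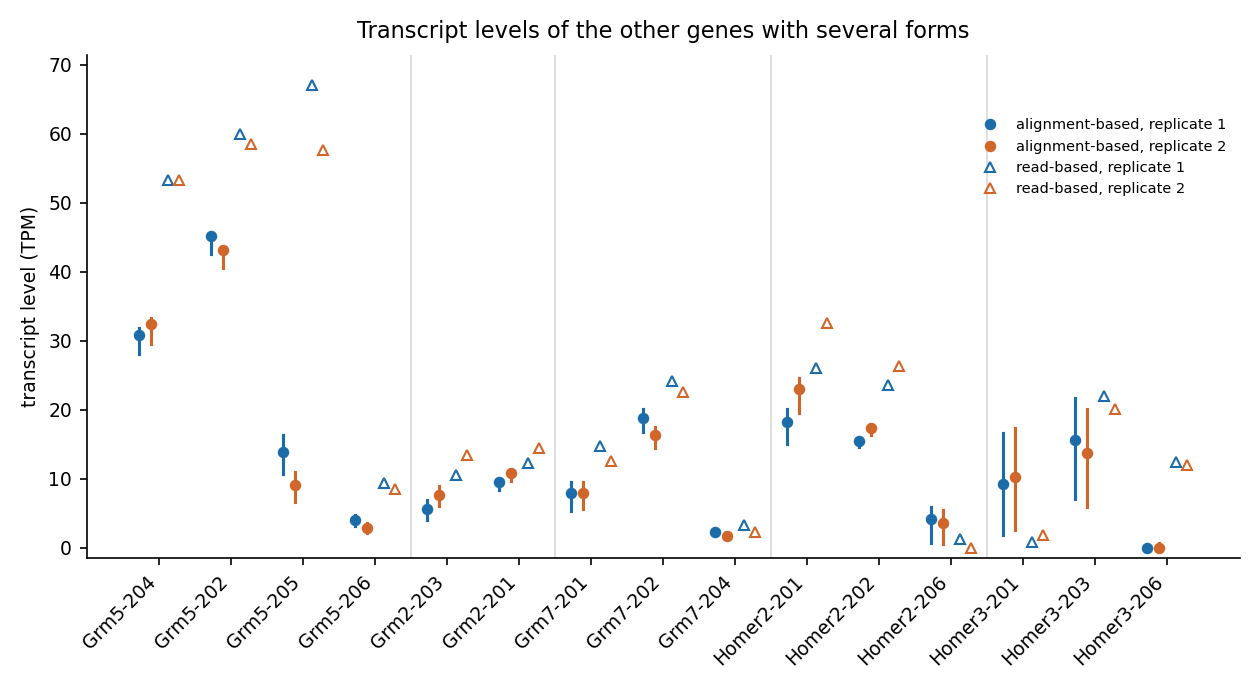
Level in TPM of the main transcripts of Grm5, Grm2, Grm7, Homer2 and Homer3 in replicate 1 (blue) and replicate 2 (orange). Filled circles are alignment-based estimates with the authors' credibility interval as a line, and open triangles are read-based estimates. Grm5-205 shows the widest gap in TPM between quantifications among those plotted, at 13.9 and 9.05 TPM by alignment against 67.1 and 57.7 TPM in the read-based tables.

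The gene levels differed between the quantifications mostly by their scale. The alignment-based TPM was 0.647 times the read-based one in replicate 1 and 0.644 times in replicate 2, as a median over protein-coding genes. Among the 9 genes 6 differed by more than 1.5-fold, in 1 direction in both libraries, against 51.7% of protein-coding genes, so nothing particular to these genes is read from that count. Relative to the median, 0 of the 9 lay over 1.5-fold apart, against 4.45% of protein-coding genes. Grm5 was the farthest below the median in replicate 1, at 0.749 times it, and Grm8 in replicate 2, at 0.715 times it. Grm5 and Homer1 at the top and Grm2, Grm4 and Grm8 at the bottom kept their order in both libraries of both quantifications, while Homer2 and Homer3 changed places in the read-based levels of replicate 1.

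The libraries gave similar levels of the 9 genes, with the group II receptors and Homer2 lower in replicate 1. As a ratio of replicate 1 to replicate 2, from expected counts with TMM scaling (a factor from the bulk of genes), 4 of 9 lay over 1.2-fold apart, against 21.1% of 14708 genes. All 4 were lower in replicate 1, and every ratio lay within the central 95% of all genes, from 0.713 to 1.52. Scaled by total counts, 2 of the 9 (Grm2 and Grm8) lay over that fold, so the count depends on the scaling.

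**Figure D5:**
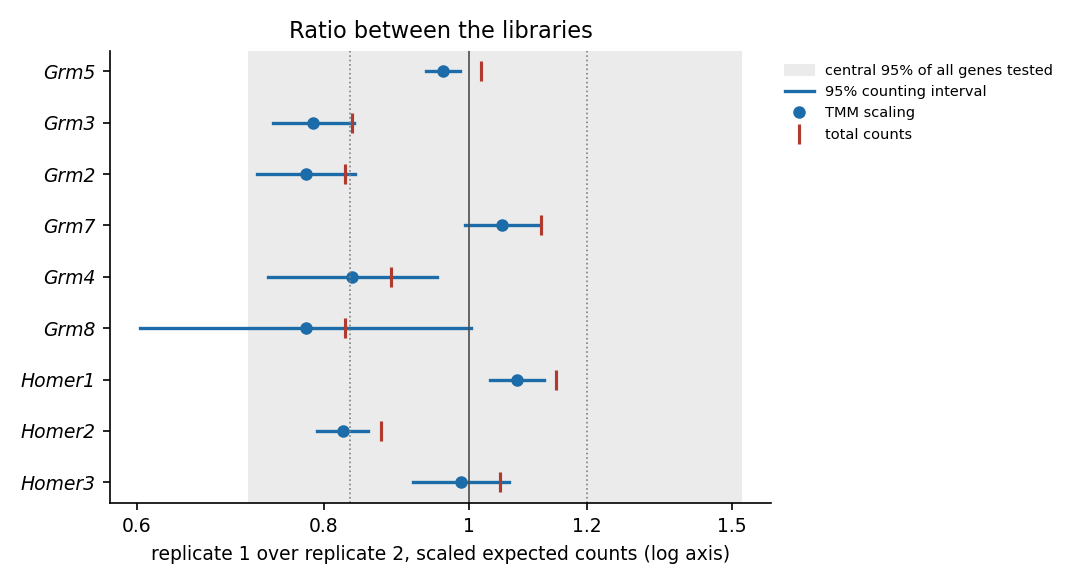
Ratio of replicate 1 to replicate 2 on a log axis for the 9 genes, from expected counts with TMM scaling (circles, lines are 95% counting intervals) and with total counts (red ticks). The grey band is the central 95% of all genes tested, from 0.713 to 1.52, and dotted lines mark 1.2-fold. All circles lie within the band, and those of Grm5 and Homer3 lie below 1 while their ticks lie above it.

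Grm2 rested on 1266 expected counts in replicate 1 and 1505 in replicate 2, a ratio of 0.779 (95% counting interval 0.722 to 0.840). Grm3 rested on 1840 counts in replicate 1 and 2164 in replicate 2, a ratio of 0.787 (0.740 to 0.838). Both group II receptors were thus lower in replicate 1 by a similar factor. Homer2, from 4759 counts in replicate 1 and 5348 in replicate 2, had a ratio of 0.824 (0.792 to 0.857), and Grm8 one of 0.779 with an interval, 0.603 to 1.00, that reached 1. Marker lists did not share 1 direction. Over 1.2-fold lower in replicate 1 were 3 of 4 dentate granule cell markers, 3 of 6 astrocyte markers and 2 of 3 microglial markers. So were 2 of 4 striatal, 1 of 4 excitatory neuron (Camk2a, ratio 0.806) and 1 of 4 oligodendrocyte lineage markers (Pdgfra, ratio 0.787). Of all genes 21.1% lay over that fold either way. Over 1.2-fold higher in replicate 1 were 6 of 6 choroid plexus markers (median ratio 37.8) and 1 of 5 interneuron markers (Sst, ratio 1.26). The same held for 1 of 4 striatal markers (Drd2, ratio 1.22) and 1 of 3 thalamic markers in the filter (Tcf7l2, ratio 1.30). Within the astrocyte list, Gfap had a ratio of 1.05 and Aqp4 one of 0.991. The dentate markers had a summed level of 82.1 TPM in replicate 1 and 102 TPM in replicate 2, and the astrocyte markers one of 1820 TPM in replicate 1 and 2127 TPM in replicate 2. No dentate or astrocyte marker was at 0, and the part of these cell types in the receptor ratios was not tested.

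Grm7 (1.05, interval 0.995 to 1.12) and Homer1 (1.08, interval 1.03 to 1.12) were the genes higher in replicate 1 under TMM scaling. Grm4, just inside the 1.2-fold limit, had a ratio of 0.836 (interval 0.734 to 0.952). For Grm5 and Homer3 the direction turned with the scaling: Grm5 was 0.961 under TMM and 1.02 under total counts, and Homer3 0.989 under TMM and 1.05 under total counts. The Grm5 ratio in TPM was 1.09, on mean effective lengths of 5269 bases in replicate 1 and 5563 bases in replicate 2.

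Of the 61 transcripts 24 passed the filter on low values, and 12 of these lay over 1.2-fold apart, against 45.6% of 32676 transcripts, which is close to the share over all transcripts. Credibility intervals did not overlap between libraries for 3 of the 24, against 9.92% of all transcripts tested, so nothing is read from that count. These 3 were Grm3-201, Homer2-202 and Homer1-204. Of these 3, Homer1-204 was the one higher in replicate 1. It had 1234 expected counts in replicate 1 and 784 in replicate 2, a ratio of 1.45 (95% counting interval 1.32 to 1.59). Its companion short form Homer1-207 had a ratio of 0.970 (0.884 to 1.07), and the long Homer1-203 one of 0.976 (0.901 to 1.06). Homer1-204 was not alone in its direction. Also over 1.2-fold higher in replicate 1, with credibility intervals that overlapped, were Homer3-208 (ratio 1.94), Grm5-205 (1.42), Grm5-206 (1.28) and Grm7-204 (1.25). These are annotated as noncoding, retained-intron or nonsense-mediated decay transcripts. The other transcripts over that fold were lower in replicate 1.

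The listed signalling partners of both receptor classes were all detected, against 58.8% of all protein-coding genes. Of the Gq arm used by mGlu5, 7 of 7 listed genes were detected, with a median of 53.5 TPM and 0 over 1.2-fold apart. Gnaq, the Gq alpha subunit, had 89.6 TPM in replicate 1 and 88.5 TPM in replicate 2. Plcb1, the phospholipase that Gq activates, had 53.6 TPM in replicate 1 and 53.4 TPM in replicate 2, and Itpr1, the calcium channel opened by its product, 57.2 TPM in replicate 1 and 55.9 TPM in replicate 2. Of the Gi/o arm used by groups II and III, 4 of 4 were detected, with a median of 83.3 TPM and 0 over 1.2-fold apart. Over all genes 21.1% lay over that fold, so nothing is read from these counts in lists of 7 and 4 genes. Gnao1, the Go alpha subunit, led it with 353 TPM in replicate 1 and 345 TPM in replicate 2.

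Of 10 Homer-binding partners 10 were detected, with a median of 64.5 TPM, and 1 lay over 1.2-fold apart, against 21.1% of all genes. That was Shank1, a postsynaptic scaffold, with 246 TPM in replicate 1 and 278 TPM in replicate 2 and a count ratio of 0.826. Agap2, which links Homer to kinase signalling, was the most abundant at 312 TPM in replicate 1 and 345 TPM in replicate 2. Of the proteins that bind or regulate the receptors 11 of 12 listed symbols were found and all 11 were detected, with a median of 39.0 TPM. The symbol not found, Adrbk1, is an older name of Grk2, which was found. Ncdn, which binds mGlu5, led that list at 540.1 TPM in replicate 1 and 567 TPM in replicate 2, and Pick1 had 20.7 TPM in replicate 1 and 16.4 TPM in replicate 2. The 2 over 1.2-fold apart, against 21.1% of all genes, were Grasp, an adaptor of group I receptors, at 0.821, and Siah1a, a ubiquitin ligase that binds them, at 0.790.

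Shared sequence was a small part of each gene. At most 0.663% of any gene's 31-base words occurred in another annotated gene, the highest share being that of Grm8. This share counts exact words per gene and does not show which transcript forms hold them. Exons on the opposite strand overlapped 25.4% of the exonic bases of Homer3 (from Ddx49), 9.60% of those of Grm2 and no more than 4.16% of those of the other genes. The sources used here do not give the use of strand in counting, so the Homer3 and Grm2 levels are uncertain. How far the overlaps enter them was not tested, and the share of bases does not bound it.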

How the data were processed

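Per the labels, 2 total RNA libraries of hippocampus were made from 300 ng of RNA each. The authors deposited, per the file headers, expected counts and TPM with credibility bounds for genes and transcripts in RSEM layout, from alignments, and estimated counts and TPM for transcripts in kallisto layout, from reads (mm10 and GENCODE M21 per the accompanying notes). The sources used here do not give the credibility level, aligner, versions or strand use. A deposited TPM can lie just outside its own bounds. Symbols were joined by gene identifier, and kallisto TPM summed per gene. Ratios used expected counts with a prior count of 0.5, TMM factors (edgeR 4.0.16; DESeq2 1.42.0 size factors as an alternative) and exact binomial 95% intervals, over genes or transcripts with a mean of at least 1 TPM and 50 summed counts. Intervals cover counting error only. The quantifications were compared with 0.1 TPM added. Python 3.11.15 and R 4.3.3 were used, and the ratio code was tested on simulated data. Long Homer1 forms hold the last coding exon in frame, and short ones end upstream of it. The text names all 9 genes, transcripts with at least 5% of a gene's TPM in both libraries of either quantification, every Homer1 transcript, and listed partners; Grm5-206 and other transcripts under that share were named after their values were seen. Members and lists were chosen with earlier results of these data known. Alternatives were other scalings, pseudocounts, quantification and single libraries. Alleles, alignments and signal tracks were not analysed here.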

Additional observations from a re-analysis of the deposited data

How the results depend on the processing

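All 9 genes were detected under every alternative tried. The count over 1.2-fold apart between libraries was 4, and 2 with total counts (23.7% of all genes), 2 with TPM and a pseudocount of 0.1 (27.3%), 1 with a pseudocount of 1 (21.9%) and 5 with read-based counts (19.9%). Of the 6 over 1.5-fold apart between quantifications, 1 was over 2-fold (8.48% of protein-coding genes) and 0 after centring (4.45%); single libraries gave 6 to 7 (59.8% to 60.8%). Shares moved as follows with read-based TPM and then expected counts, which are not corrected for length: Homer1 short forms 42.8% and 46.6%, Grm5 b form 47.4% and 28.4%, Grm7 b form 36.8% and 25.1%, group I 60.4% and 64.4%, group II 21.4% and 18.9%, group III 18.2% and 16.7%, Homer3 26.5% and 13.0%; Homer2 took 45.7% of counts. Read-based Homer1 short forms took 52.5% over long forms with the shared exons. Over coding transcripts group I took 48.5%, group III 21.6%, Homer1 46.9% and Homer3 20.99%. Coding restriction, centring and the shared-exon share were chosen after seeing the data. Levels rescaled over nuclear protein-coding genes ranged from 3.93 TPM (Grm8) to 213 TPM (Grm5). With 1 group, no paired analysis was possible because no groups are compared. Depth limits Grm8 most, with 116 and 138 counts.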

Other observations

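Homer1-204 was set beside 7 other activity-regulated genes, a list chosen after its values were seen. Their direction was mixed: Fosb was over 1.2-fold higher in replicate 1, at 2.66 TPM in replicate 1 and 1.58 TPM in replicate 2, while Npas4, at 2.20 TPM in replicate 1 and 2.72 TPM in replicate 2, and Nr4a1, at 15.0 TPM in replicate 1 and 21.2 TPM in replicate 2, were lower in it by that fold. Arc had 31.5 TPM in replicate 1 and 26.7 TPM in replicate 2, a count ratio of 1.10, and Egr1 28.8 TPM in both libraries, a count ratio of 0.929.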
